A study of Mus musculus with 9 samples.

Results

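The 10 genes described here belong to the bone morphogenetic protein (BMP) pathway: the ligands Bmp2 and Bmp4, the receptors Bmpr1a and Bmpr2, the signal transducer Smad1, its inhibitor Smad6, the target genes Id1, Id2 and Id3, and the secreted antagonist Grem1. They were chosen by name, with earlier results of these data known, and each was found once among 49671 gene rows of a count table. All 10 passed the filter on low counts, which kept 18435 genes for testing. RNA had been sequenced from mouse skin cells of 2 Flg genotypes, 5 wt/wt and 4 ko/ko samples. Filaggrin, the product of Flg, is a structural protein of the outermost layer of the skin, and the genotypes are the only comparison of the study. The cells of both genotypes were sorted by flow cytometry as negative for CD45, a surface protein of leukocytes, and positive for CD49f (integrin alpha-6), carried by basal keratinocytes and also by endothelial cells. The labels give no strain, sex, age or treatment and do not describe how the ko allele was made. Each sample has its own identifier and is taken as 1 animal, but no label states this, so p-values measure the spread between these samples, which may be technical.

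BMPs are secreted ligands of the TGF-beta family that bring together type I and type II receptor kinases at the cell surface. The type I receptor phosphorylates Smad1 and its close relatives, which enter the nucleus with Smad4 and switch on targets such as the Id genes and Smad6, an inhibitor that feeds back on the pathway. Id proteins carry a helix-loop-helix domain without the DNA-binding region, so they pair with E proteins and keep them off DNA. In skin, BMP signals are known for holding hair follicle stem cells at rest and for hair shaft and keratinocyte differentiation, with dermal cells supplying both ligands and antagonists.

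The coding sequences of the Id genes are similar enough to be set side by side, which also shows what the read counts had to tell apart. The most alike 120-base coding stretch without gaps is printed below in reading frame, with capitals at the bases that all 3 genes share (77 of 120, 64.2%). It lies at coding bases 178 to 297 of 504 in Id1 (chr2:152736518-152736637, plus strand), 109 to 228 of 465 in Id2 (chr12:25095783-25095902, minus strand) and 124 to 243 of 357 in Id3 (chr4:136144002-136144121, plus strand), each within 1 exon of the GRCm38 genome as annotated in GENCODE M21.
Id1: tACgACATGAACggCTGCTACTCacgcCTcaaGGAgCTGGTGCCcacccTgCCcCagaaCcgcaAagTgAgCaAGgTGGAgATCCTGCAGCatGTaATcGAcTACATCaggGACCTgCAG
Id2: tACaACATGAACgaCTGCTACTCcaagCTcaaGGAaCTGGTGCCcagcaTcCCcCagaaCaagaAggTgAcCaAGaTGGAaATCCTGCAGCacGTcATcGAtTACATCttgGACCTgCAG
Id3: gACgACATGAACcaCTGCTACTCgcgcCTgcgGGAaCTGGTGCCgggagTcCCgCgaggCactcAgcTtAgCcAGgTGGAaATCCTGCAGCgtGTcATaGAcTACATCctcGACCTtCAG
Across this stretch Id1 and Id2 were identical at 81.7% of bases, Id2 and Id3 at 71.7%, and Id1 and Id3 at 70.8%. The longest run of bases that any pair of Id1, Id2 and Id3 shared over their whole transcripts was 15, shorter than a usual sequencing read.

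Library totals ran from 15601859 to 23200440 counts. Flg had at most 6 counts in any library, too few to check the genotype labels. The cells are labelled epidermal, yet Dcn, a matrix proteoglycan of fibroblasts, averaged 16459 CPM (counts scaled to library size, with TMM factors) and Krt14, a keratin of basal keratinocytes, 1171 CPM, and neither was near 0 in any library. In such bulk samples fewer cells of a type and less RNA per cell cannot be told apart. Mitochondrial genes took 2.77% to 7.55% of counts in wt/wt, and, within ko/ko, 6.30% in replicate 1 against 1.81% to 2.01% in replicates 2 to 4.

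The Id genes stood far above the other members when levels were expressed per length of exon (CPM per kilobase, RPKM). Id3 averaged 525 ± 38.8 RPKM (SD, n = 9 libraries), Id1 438 ± 103 RPKM and Id2 358 ± 34.3 RPKM. Bmp2 followed at 65.4 ± 20.8 RPKM and Bmp4 at 19.9 ± 2.61 RPKM. Bmpr1a was at 8.83 ± 2.38 RPKM, Smad1 at 5.97 ± 0.890 RPKM, Smad6 at 3.55 ± 0.649 RPKM, Bmpr2 at 3.40 ± 1.41 RPKM and Grem1 at 0.718 ± 0.306 RPKM. Most steps of this order held in at least 8 of 9 libraries. The exceptions were Bmpr1a above Smad1, which held in 7 libraries, and Smad6 above Bmpr2, which held in 6, so Smad6 and Bmpr2 did not differ beyond their spread.

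**Figure D1:**
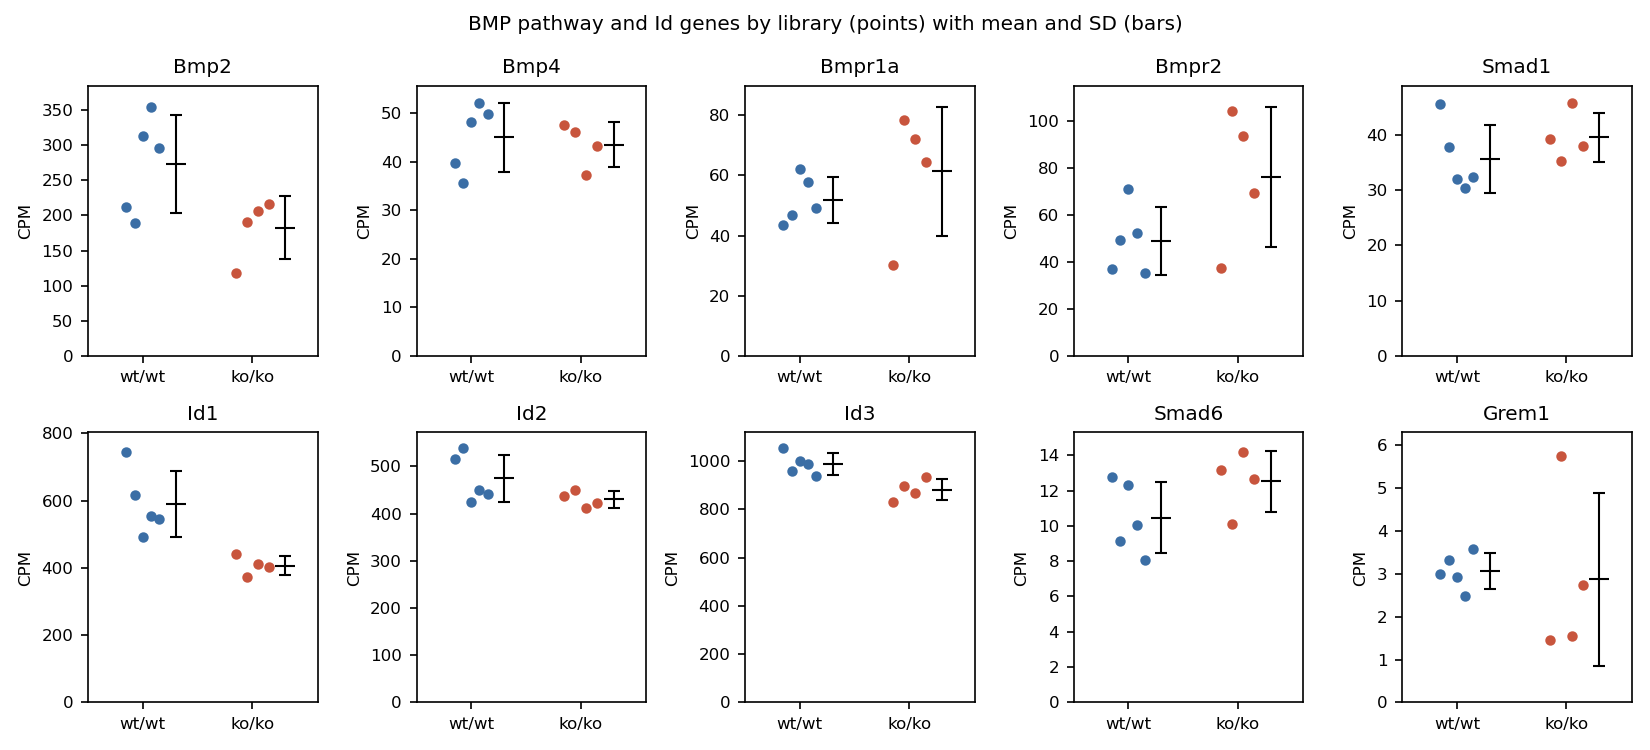
Level of each of the 10 genes in CPM with library sizes adjusted by TMM, 1 point per library, for 5 wt/wt and 4 ko/ko libraries. Bars beside the points give the group mean and SD, and every vertical axis starts at 0. In the Id1 and Id3 panels all ko/ko points lie below all wt/wt points, and in the Grem1 panel ko/ko replicate 2 stands at 5.75 CPM above all other libraries.

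Between genotypes, Id1, Bmp2, Id2 and Id3 had lower means in ko/ko and Bmpr2, Bmpr1a, Smad6 and Smad1 had higher means, but none of the 10 genes passed the test. With edgeR's quasi-likelihood test and Benjamini-Hochberg adjustment over all 18435 genes, 0 of 10 had an adjusted p under 0.05, against 0.00542% of all genes, which is 1 gene. At an unadjusted p under 0.05 the members lower in ko/ko were 2, Id1 and Bmp2, against 6.42% of all genes, and 0 were higher, against 8.86%. The lower count was 1 when ko/ko replicate 1 or wt/wt replicate 3, 4 or 5 was left out, and the higher count was 2 without ko/ko replicate 1 and 1 without wt/wt replicate 3. Of the members 4 had a positive log2 fold change and 6 a negative one, with a median of −0.07, and 47.4% of all genes were positive with a median of −0.03. The other tools called more. DESeq2, which gave an adjusted p for 17333 genes, called 1 member, Id1, lower, where it called 3.63% of those genes in either direction, 2.53% higher and 1.11% lower. limma voom with sample quality weights called 2, Id1 and Bmp2, lower, where it called 9.77% of all genes in either direction, 6.60% higher and 3.17% lower. In 2 members, Id1 and Id3, the CPM ranges of the genotypes did not overlap, lower in ko/ko in both, against 6.25% of all genes in either direction, 3.51% higher and 2.74% lower. In CPM of plain library totals, without TMM factors, 0 members were without overlap, against 4.57% of all genes higher and 1.38% lower in ko/ko.

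**Figure D2:**
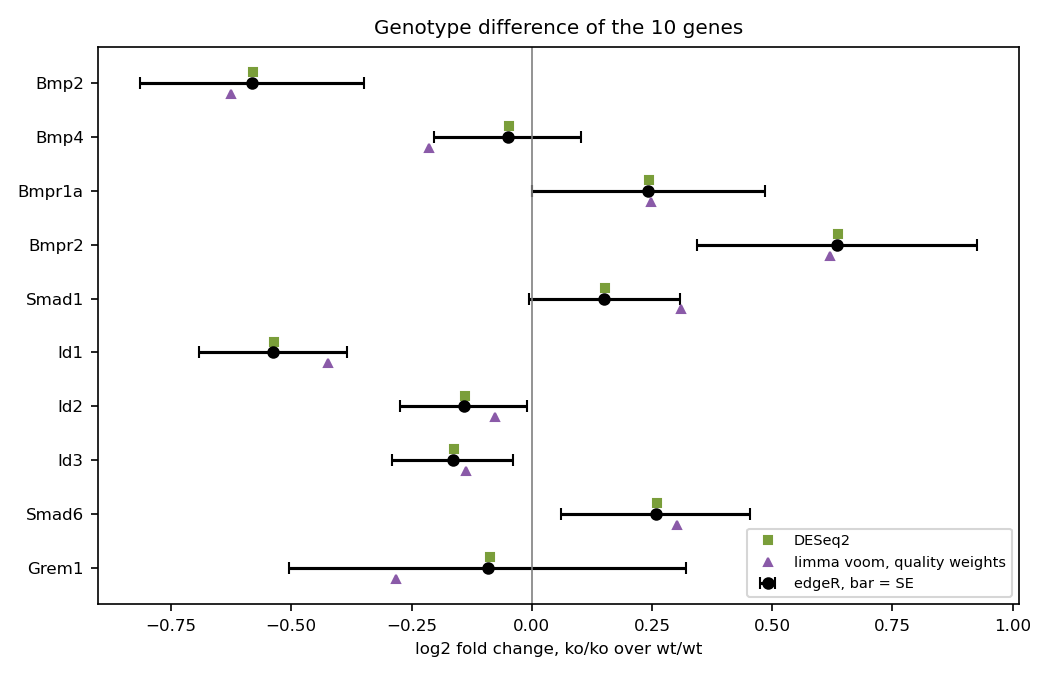
Log2 fold change of the 10 genes, ko/ko over wt/wt, from edgeR (circles, with bars of 1 standard error), DESeq2 (squares) and limma voom with quality weights (triangles). Id1 at −0.54 and Bmp2 at −0.58 lie farthest below 0 and Bmpr2 at 0.64 farthest above, and no gene passed the adjusted threshold in the edgeR fit.

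Among the ligands, Bmp2, which is made by several epithelial and dermal cell types, was lower in ko/ko by its mean, with overlapping ranges. Bmp2 (ENSMUSG00000027358, mm10 chromosome 2, 133552159 to 133562885, plus strand) was at 211, 189, 313, 354 and 296 CPM in wt/wt replicates 1 to 5 and at 117, 190.2, 206 and 216 CPM in ko/ko replicates 1 to 4. The wt/wt libraries 1 and 2 lay within the ko/ko range, and wt/wt 3 to 5 lay above it. The log2 fold change was −0.58 (SE 0.23), with adjusted p = 0.275 by edgeR, 0.165 by DESeq2 and 0.0335 by voom. Bmp4 (ENSMUSG00000021835, chromosome 14, 46383520 to 46390669, minus strand), a ligand made by dermal fibroblasts and the dermal papilla, was at 39.7, 35.5, 48.1, 52.0 and 49.8 CPM in wt/wt and at 47.6, 46.0, 37.2 and 43.2 CPM in ko/ko. Its ranges overlapped almost fully, and its log2 fold change of −0.05 (SE 0.15, adjusted p = 0.902 by edgeR) became 0.07 with library totals alone. A ratio of 2 genes in 1 library needs no scaling between libraries: counts of Bmp2 per count of Bmp4 ran from 5.32 to 6.81 in wt/wt and from 2.46 to 5.53 in ko/ko. Bmp4 shares exon positions with Gm15217 on the opposite strand and Bmpr1a with Gm17110. The overlapping genes had 16 and 47 counts over all libraries, and whether strand was used in counting is not given in the sources used here.

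The other ligands and their relatives included Bmp5, a BMP of the dermis and hair follicle, with a mean of 223 CPM (SD 38.6, n = 5) for wt/wt and of 141 CPM (SD 60.0, n = 4) for ko/ko. By library it was at 190.3, 172, 249.7, 254 and 248 CPM in wt/wt and at 68.2, 214, 152 and 130.2 CPM in ko/ko. All ko/ko libraries but replicate 2 lay below the wt/wt range, and the log2 fold change was −0.66 (SE 0.28, adjusted p = 0.292 by edgeR, adjusted p = 0.0270 by voom). Log2 fold changes of Gdf5, Gdf10 and Bmp7, further family members, were −0.28, −0.12 and −0.14. Of 15 listed ligands 10 were tested, 7 with a negative and 3 with a positive value and a median of −0.13. edgeR called 0 of them (2 lower at an unadjusted p under 0.05, against 6.42% of all genes), DESeq2 0, and voom 2 lower, Bmp2 and Bmp5, against 3.17%.

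Both receptors had higher means in ko/ko, and in both ko/ko replicate 1 was the lowest of the ko/ko libraries. Bmpr2 (ENSMUSG00000067336, chromosome 1, 59763400 to 59879014, plus strand), the type II receptor for BMPs, was at 37.3, 49.4, 71.3, 52.4 and 35.3 CPM in wt/wt and at 37.3, 104, 93.8 and 69.6 CPM in ko/ko. Replicate 1 of ko/ko sat with the lowest wt/wt libraries, and ko/ko 2 and 3 lay above every wt/wt library. The log2 fold change was 0.64 (SE 0.29, adjusted p = 0.329 by edgeR). Bmpr2 has 17983 bases of exon, and the value was 0.26 after a trend of fold change on exon length over all genes was removed, the lowest of settings that ran up to 0.93. Bmpr1a (ENSMUSG00000021796, chromosome 14, 34410734 to 34503341, minus strand), a type I receptor, was at 43.7, 46.7, 62.0, 57.9 and 49.2 CPM in wt/wt and at 30.3, 78.5, 72.1 and 64.5 CPM in ko/ko. Here ko/ko replicate 1 was the lowest of all 9 libraries and the other ko/ko libraries were the 3 highest. The log2 fold change was 0.24 (SE 0.24, adjusted p = 0.661 by edgeR), and over the alternative settings it ran from 0.10 to 0.48. ko/ko replicate 1 also had the smallest library total and the highest mitochondrial share of its group, and the part of these in the receptor values was not tested.

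Of 11 listed receptors and co-receptors, all tested, 8 had a positive log2 fold change and 3 a negative one, with a median of 0.24. edgeR called 0 of them (1 higher at an unadjusted p under 0.05, against 8.86% of all genes), DESeq2 0, and voom 1 higher, Rgmb, against 6.60%. By level per length the leading ones were Tgfbr3, a co-receptor, at 0.33, Eng, a co-receptor of endothelial cells, at 0.07, the type I receptor Acvr1 at 0.22, and Acvrl1, an endothelial type I receptor, at −0.20. Rgmb, a BMP co-receptor named here after its values were seen, was at 9.81, 9.47, 11.4, 11.3 and 13.0 CPM in wt/wt and at 13.0, 17.9, 16.3 and 15.9 CPM in ko/ko. Its log2 fold change was 0.52 (SE 0.17, adjusted p = 0.210 by edgeR, adjusted p = 0.0430 by voom).

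The Smads among the members showed small differences. Smad1 (ENSMUSG00000031681, chromosome 8, 79338395 to 79399518, minus strand), the transducer activated by BMP receptors, was at 45.6, 37.8, 31.9, 30.4 and 32.4 CPM in wt/wt and at 39.2, 35.3, 45.7 and 38.0 CPM in ko/ko. The highest wt/wt and the highest ko/ko library were nearly equal, and the ranges overlapped. In log2 terms the difference was 0.15 (SE 0.16, adjusted p = 0.676 by edgeR). Smad6 (ENSMUSG00000036867, chromosome 9, 63953076 to 64022059, minus strand), which blocks the activation of Smad1, was at 12.8, 9.13, 12.3, 10.1 and 8.08 CPM in wt/wt and at 13.2, 10.1, 14.2 and 12.6 CPM in ko/ko. Its ranges overlapped as well, with a log2 fold change of 0.26 (SE 0.20, adjusted p = 0.552 by edgeR).

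Of 12 listed Smads and their regulators, all tested, 9 had a positive log2 fold change and 3 a negative one, with a median of 0.23, and 4 were higher at an unadjusted p under 0.05, against 8.86% of all genes. edgeR called 0, DESeq2 1 higher, Ppm1a, against 2.53% of all genes, and voom 2 higher, Ppm1a and Smad4, against 6.60%. Ppm1a, a phosphatase that removes the activating phosphate from Smads, was at 33.9, 43.2, 40.3, 36.2 and 33.4 CPM in wt/wt and at 62.5, 54.3, 47.5 and 51.0 CPM in ko/ko. All 4 ko/ko libraries lay above all wt/wt libraries, also with library totals. Its log2 fold change came to 0.52 (SE 0.14), with adjusted p = 0.156 by edgeR, 0.0236 by DESeq2 and 0.0321 by voom. Smad4, the partner shared by all activated Smads and named after its values were seen, stood at 0.47 on the same scale (SE 0.15, adjusted p = 0.212 by edgeR, adjusted p = 0.0174 by voom). Ski and Skil, repressors that bind Smads, were at 0.19 and −0.12, and Smad7, an inhibitor of both BMP and TGF-beta signalling, at 0.19.

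Of the target genes, Id1 was the member with the smallest p. Id1 (ENSMUSG00000042745, chromosome 2, 152736251 to 152737410, plus strand) was at 745, 615, 491, 554 and 545 CPM in wt/wt and at 442, 371, 412 and 401 CPM in ko/ko. The highest ko/ko library lay below the lowest wt/wt library, and wt/wt replicates 1 and 2 were the highest. The means were 590.1 CPM (SD 97.4, n = 5) for wt/wt and 407 CPM (SD 29.1, n = 4) for ko/ko. On the log2 scale ko/ko over wt/wt was −0.54 (SE 0.15), with adjusted p = 0.174 by edgeR, 0.0232 by DESeq2 and 0.0383 by voom. In CPM of library totals Id1 ran from 453 to 759 in wt/wt and from 364 to 490.1 in ko/ko.

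Id3 (ENSMUSG00000007872, chromosome 4, 136143497 to 136145755, plus strand) was at 1054, 959.6, 1002, 987 and 939 CPM in wt/wt and at 829.8, 897, 868 and 933 CPM in ko/ko. The lowest wt/wt and the highest ko/ko library nearly touched, and the log2 fold change was −0.16 (SE 0.13, adjusted p = 0.556 by edgeR). Id2 (ENSMUSG00000020644, chromosome 12, 25093801 to 25096092, minus strand) was at 517, 538, 424, 451 and 442 CPM in wt/wt and at 438, 450.5, 411 and 422 CPM in ko/ko. Its ranges overlapped, and wt/wt replicates 1 and 2 again were the highest. The fitted log2 fold change was −0.14 (SE 0.13, adjusted p = 0.636 by edgeR).

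Within the Id family, Id1 took a smaller part in ko/ko, in a comparison that needs no scaling between libraries and was not tested. Of the summed RPKM of Id1, Id2, Id3 and Id4, Id1 took 31.9% to 38.9% in wt/wt and 26.9% to 31.7% in ko/ko, and the ranges did not overlap. Id2 took 24.7% to 28.2% in wt/wt and 27.4% to 29.8% in ko/ko, with overlap, and Id3 35.7% to 42.1% and 38.6% to 43.0%, also with overlap. Id4, the least abundant, took 0.733% to 0.821% in wt/wt and 0.906% to 1.39% in ko/ko, without overlap. In CPM Id4 ran from 17.1 to 20.1 in wt/wt and from 18.2 to 27.2 in ko/ko, with overlap. Id4 had 360 to 580 counts per library, and it shares exon positions with A330033J07Rik on the opposite strand, which had 436 counts over all libraries. Counts of Id1 per count of Id3 averaged 0.596 ± 0.0823 (SD, n = 5) in wt/wt and 0.463 ± 0.0530 (SD, n = 4) in ko/ko, with ranges of 0.490 to 0.707 and 0.414 to 0.533 that overlapped.

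Of 14 listed BMP target genes, all tested, 9 had a negative log2 fold change and 5 a positive one, with a median of −0.15. At an unadjusted p under 0.05, 3 were lower and 0 higher, against 6.42% and 8.86% of all genes. edgeR called 0, DESeq2 1 lower, against 1.11% of all genes, and voom 1 lower, against 3.17%, in both cases Id1. Atoh8, a transcription factor, was at 32.7, 20.7, 27.8, 25.1 and 34.5 CPM in wt/wt and at 14.1, 19.9, 21.8 and 23.2 CPM in ko/ko, with overlap and a log2 fold change of −0.51 (SE 0.20, adjusted p = 0.265 by edgeR). Msx1, a homeobox gene, was at −0.01 and Id4, the fourth Id gene, at 0.24.

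Id2 and Smad6, both targets of activated Smads, are shown with the letters before their transcription start. RefSeq promoter sequences (GRCm38.p6) matched 8 of the 10 members, without Id1 and Bmp2. Capitals mark GGCGCC, a palindromic sequence that Smad1 can bind, which reads the same on both strands. The Id2 stretch covers 250 to 162 bases before the start and the Smad6 stretch the last 100 bases before it, each in the direction of transcription.
Id2 (chr12:25096254-25096342, minus strand): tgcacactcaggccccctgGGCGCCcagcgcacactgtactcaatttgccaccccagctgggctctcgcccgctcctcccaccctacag
Smad6 (chr9:64022060-64022159, minus strand): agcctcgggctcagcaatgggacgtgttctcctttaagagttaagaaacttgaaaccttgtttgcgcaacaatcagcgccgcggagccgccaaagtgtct
In Id2 the match begins 231 bases before the start, and Smad6 has none within 250 bases. Over the 250 bases before the start, 4 of the 8 members held GGCGCC (Bmpr2, Grem1, Id2 and Bmpr1a), and so did 9.59% of all 32851 promoters. The sequence CANNTG, which E proteins bind and which was also searched on both strands, was held by 2 of the 8, Id2 and Bmp4, and by 66.2% of all promoters. In Id2, the only member with both, the matches do not overlap. The promoters behind the 2 shares were not matched to the members for base composition. The 250-base windows of Bmpr2 and Id3 begin inside an annotated exon. Those of Smad1, Bmpr1a and Id2 reach one after 160, 109 and 89 bases, where the Id2 stretch shown stops. A match describes the letters, and binding was not measured here.

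Grem1 (ENSMUSG00000074934, chromosome 2, 113746164 to 113758646, minus strand), a secreted antagonist that binds BMP2 and BMP4, was the member with the lowest level and the largest spread in ko/ko. It was at 3.00, 3.32, 2.93, 2.49 and 3.58 CPM in wt/wt and at 1.45, 5.75, 1.55 and 2.73 CPM in ko/ko. The wt/wt libraries differed little, with a coefficient of variation of 13.5%, while that of ko/ko was 70.0%, with replicate 2 high and replicates 1 and 3 low. Counts behind these levels ran from 25 to 127 per library. In log2 terms the difference was −0.09 (SE 0.41, adjusted p = 0.935 by edgeR), and it ran from −0.68 to 0.24 over the alternative settings, the former without ko/ko replicate 2.

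Of 19 listed antagonists and modulators, all tested, 12 had a negative log2 fold change and 7 a positive one, with a median of −0.05. edgeR called 0 (1 higher and 1 lower at an unadjusted p under 0.05, against 8.86% and 6.42% of all genes), and DESeq2 and voom called 1 lower each, the same gene, Bambi, against 1.11% and 3.17%. Bambi, a pseudoreceptor without kinase activity that is itself switched on by BMP and TGF-beta, was at 254, 221, 309, 370.4 and 356 CPM in wt/wt and at 166, 209, 203 and 187 CPM in ko/ko. All ko/ko libraries lay below all wt/wt libraries, also with library totals. Its log2 fold change came to −0.66 (SE 0.18), with adjusted p = 0.159 by edgeR, 0.0213 by DESeq2 and 0.0121 by voom. Counts of Bambi per count of Id3 ran from 0.231 to 0.379 in wt/wt and from 0.200 to 0.234 in ko/ko, with overlap. Of the most abundant secreted modulators, Fstl1 was at 0.02, Twsg1 at −0.32 and Nbl1 at −0.03, and the sign for Fstl1 and Nbl1 depended on the setting.

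The E proteins, the partners that Id proteins bind, all had positive log2 fold changes, though Tcf4 and Tcf12 turned negative once the exon-length trend was removed. Tcf4 was at 540.0, 427, 529, 554 and 541 CPM in wt/wt and at 592, 679, 679.8 and 672 CPM in ko/ko, without overlap. Its log2 fold change was 0.34 (SE 0.14, adjusted p = 0.272 by edgeR), and it turned to −0.18 after that removal. Tcf4 has 27382 bases of exon. Tcf3 was at 0.41 (SE 0.16, adjusted p = 0.275 by edgeR). Tcf12 was at 0.06, which turned to −0.30 without the length trend. At an unadjusted p under 0.05, 2 of the 3 were higher, against 8.86% of all genes, and none was called by edgeR, DESeq2 or voom. Of the 57 tested pathway genes that are not members, out of 62 listed, 29 had a positive value and 28 a negative one, with a median of 0.02, and at an unadjusted p under 0.05 edgeR had 8 higher and 4 lower, against 8.86% and 6.42% of all genes. With 1 library left out these were 5 to 9 higher (5 without ko/ko replicate 3) and 2 to 4 lower (2 when ko/ko replicate 1 or wt/wt replicate 5 was left out). Bmp8a, Bmp8b, Bmp10, Gdf2 and Gdf7 were too low to be tested.

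**Figure D3:**
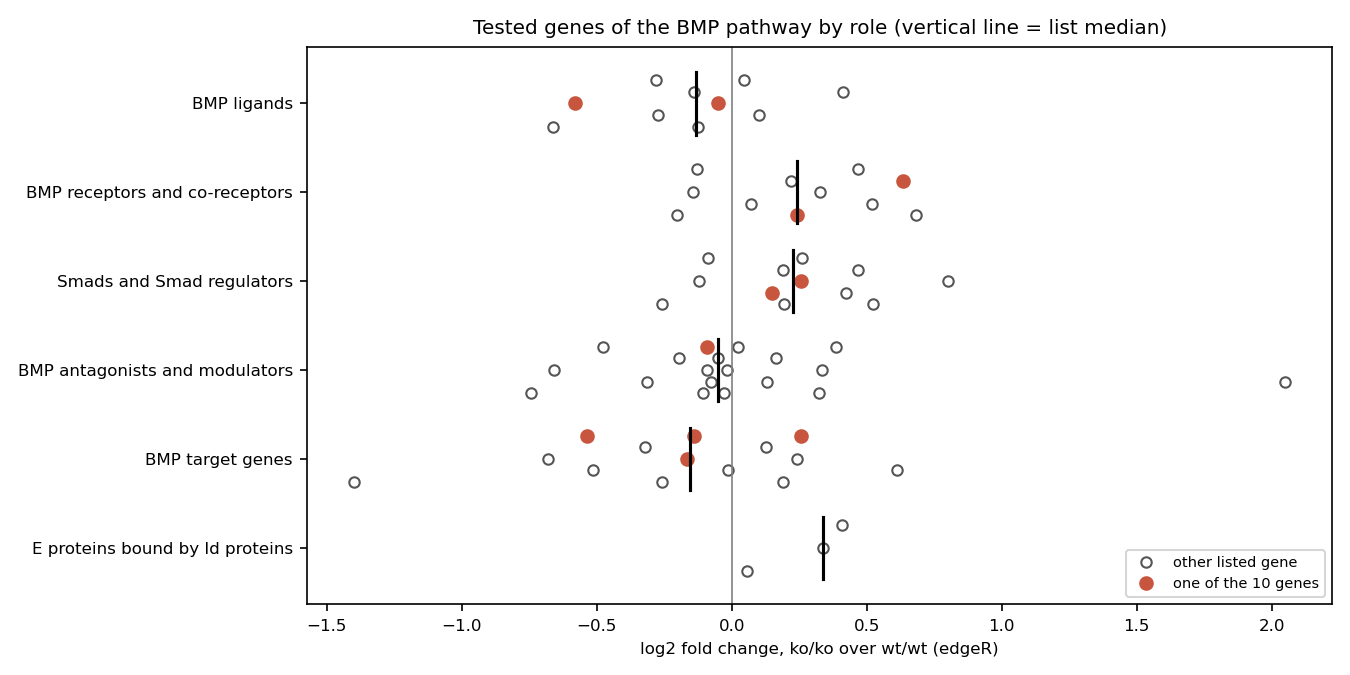
Log2 fold change, ko/ko over wt/wt, of the tested BMP pathway genes by role, 1 point per gene, with members marked apart from the other genes. Medians were −0.13 for ligands, 0.24 for receptors, 0.23 for Smads and their regulators, −0.05 for antagonists and modulators, −0.15 for targets and 0.34 for the E proteins, and the roles overlap.

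Markers of lymphatic endothelium had lower summed levels in the ko/ko libraries, as Id1 did. All 7 markers, among them Lyve1, Pdpn, Mmrn1 and Ccl21a, had a negative log2 fold change, with a median of −1.08. The smallest was that of Pdpn (−0.08, overlapping ranges). edgeR called 0, with 6 lower at an unadjusted p under 0.05, against 6.42% of all genes. DESeq2 called 3 lower, against 1.11%, and voom 2, against 3.17%. None of the 7 markers was at 0 in any library. Their summed level was 896, 834, 414, 499 and 449 CPM in wt/wt and 250, 330.1, 225 and 309.9 CPM in ko/ko. The wt/wt replicates 1 and 2 were the highest in both this sum and Id1, and every ko/ko library was below every wt/wt library in both. In percent of all counts the list took 0.0382% to 0.0912% in wt/wt and 0.0248% to 0.0324% in ko/ko, with p = 0.0159 by a two-sided exact permutation test and p = 0.159 after adjustment over 10 marker lists. The smallest p this design allows is 0.00794. Lyve1, a hyaluronan receptor of lymphatic vessels and some macrophages, had the lowest edgeR adjusted p of the list, 0.0951, with a log2 fold change of −1.63 (SE 0.28). The part of lymphatic cells in the Id1 difference was not tested.

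**Figure D4:**
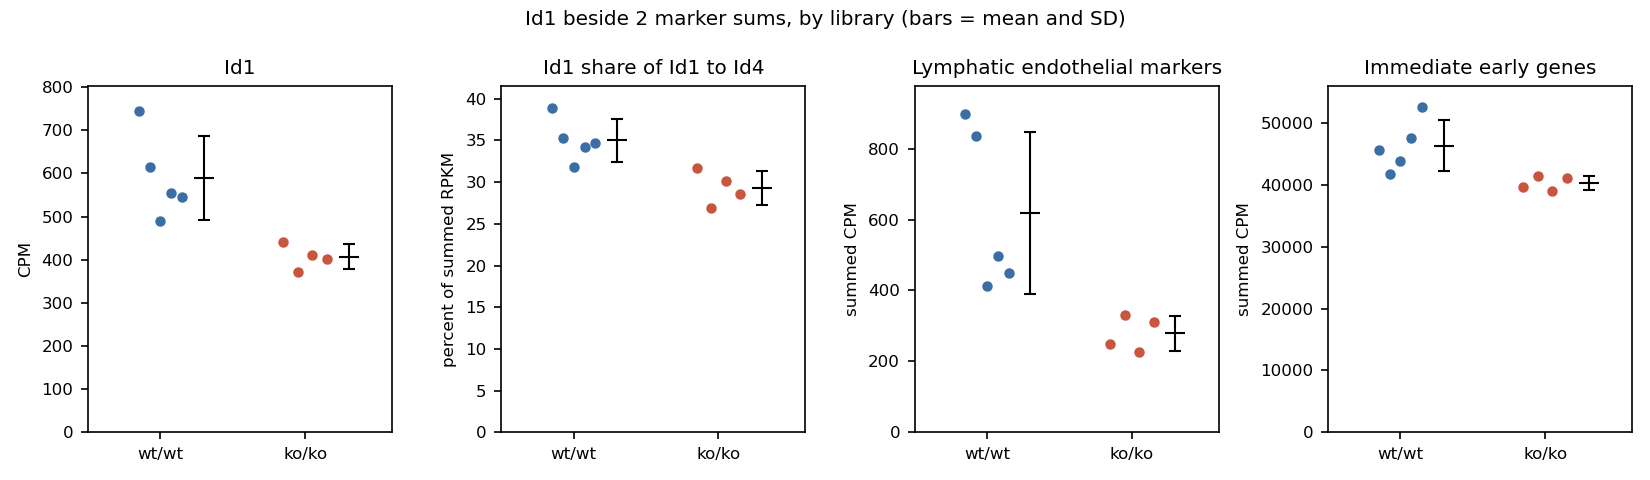
From left to right, Id1 level in CPM, the Id1 share of the summed RPKM of Id1 to Id4 in percent, and the summed CPM of 7 lymphatic endothelial markers and of the immediate early genes, 1 point per library, with group mean and SD beside the points. In all 4 panels the ko/ko libraries lie below all wt/wt libraries, at 371 to 442 CPM of Id1 and at 225 to 330.1 CPM of lymphatic markers.

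Immediate early genes, which respond quickly to tissue dissociation and include Fos and Junb, summed to 41789 to 52606 CPM in wt/wt and to 39034 to 41415 CPM in ko/ko without overlap. As a share of counts they took 4.05% to 4.94% and 4.04% to 4.39%, with overlap (p = 0.238, adjusted p = 0.794, exact permutation test). Of 10 such genes 9 had a negative log2 fold change, with a median of −0.17. edgeR called 0 (2 lower at an unadjusted p under 0.05, against 6.42% of all genes). DESeq2 called 1 lower, against 1.11%, and voom 1, against 3.17%. In 3 the CPM ranges did not overlap, lower in ko/ko, against 2.74% of all genes. The part of immediate early genes in the Id gene values was not tested. Shares of the other lists overlapped between genotypes, with an exact permutation p of 0.0794 for myeloid, 0.444 for basal keratinocyte, 0.476 for dermal fibroblast, 0.746 for blood endothelial, 0.762 for Schwann cell and melanocyte, 0.857 for hair follicle, 0.873 for dermal papilla and sheath and 0.984 for pericyte and smooth muscle markers, none of them below 0.05 before or after adjustment. Of the 10 hair follicle markers 7 had a negative log2 fold change, with a median of −0.62 and 1 marker at 0 in some library. Their summed share of counts was not lower in ko/ko, with a mean of 0.123% in wt/wt and 0.126% in ko/ko. Of these 10, 0 were called by edgeR (2 lower at an unadjusted p under 0.05, against 6.42% of all genes), DESeq2 or voom. All 10 myeloid markers, whose cells the CD45 gate should remove, had a positive log2 fold change, with a median of 2.61. edgeR called 0 of these myeloid markers (8 higher at an unadjusted p under 0.05, against 8.86% of all genes). DESeq2 called 5 of these markers higher, against 2.53%, and voom 2, against 6.60%. Their summed level was 39.7 to 95.4 CPM in wt/wt and 54.3 to 256 CPM in ko/ko, with C1qc and Tyrobp at 0 in some libraries, and their part in the members' values was not tested. Of the 10 basal keratinocyte markers 8 had a positive log2 fold change, with a median of 0.19. edgeR called 0 (1 higher at an unadjusted p under 0.05, against 8.86% of all genes). DESeq2 called 1 higher, against 2.53%, and voom 3, against 6.60%. Among these markers Itga6, which encodes CD49f, stood at 0.64 on the log2 scale (SE 0.17). Its adjusted p was 0.157 by edgeR, 0.0267 by DESeq2 and 0.0187 by voom. It ran from 43.4 to 66.3 CPM in wt/wt and from 64.0 to 97.1 CPM in ko/ko, with overlap. The summed dermal fibroblast markers differed within wt/wt, at 32551 and 26821 CPM in replicates 1 and 2 and 55970 to 62106 CPM in replicates 3 to 5. In ko/ko this sum ran from 35421 to 61417 CPM. Bmp2 was also lowest within wt/wt in replicates 1 and 2, and the part of fibroblasts in the members' values was not tested.

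Correlations across the 9 libraries were computed for the 6 pairs among Id1, Id2, Id3 and Smad6, and none passed after adjustment. Log2 CPM of Id1 and Id2 had Pearson r = 0.76 (permutation p = 0.0237, adjusted p = 0.0710) and Spearman rho = 0.70 (p = 0.0433, adjusted p = 0.130). Id1 and Id3 had r = 0.75 (permutation p = 0.0199, adjusted p = 0.0710) and rho = 0.73 (p = 0.0311, adjusted p = 0.130). After each genotype's mean was subtracted, r was 0.69 for Id1 with Id2 (permutation p = 0.0455, adjusted p = 0.273), 0.19 for Id1 with Id3 and 0.12 for Id2 with Id3. Without the 2 libraries farthest from the median of Id1, r was 0.80 for Id1 with Id2 (permutation p = 0.0103, adjusted p = 0.0548), with rho = 0.93 (permutation p = 0.00675, adjusted p = 0.0405), the only adjusted value under 0.05 in this setting. For Id1 with Id3 r was then 0.58 (permutation p = 0.180). Id2 with Id3 had r = 0.50 (permutation p = 0.172). Smad6 had r = −0.27 with Id1, −0.37 with Id2 and −0.20 with Id3, none with a permutation p under 0.05. Without the 2 libraries farthest from the median of Id1, r of Id1 with Smad6 was −0.86 (permutation p = 0.0183, adjusted p = 0.0548), and after each genotype's mean was subtracted it was 0.37.

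The genes whose log2 CPM followed Id1 most closely over the 9 libraries, among 9750 genes with a mean of at least 10 CPM, were Pald1 (Pearson r = 0.959), Lyve1 (0.957), Tc2n (0.950), Dll4 (0.942) and Ppp1r8 (0.935). Lyve1 is one of the lymphatic markers above, and Dll4 is a Notch ligand of endothelial cells. For Grem1 they were Mboat2 (0.954), Rsrc1 (0.916), Cap1 (0.913), Ctso (0.912) and B3glct (0.904). The points share genotype, library and depth, and these values are the highest of many, so they are given as a description with no p.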

How the data were processed

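Polyadenylated RNA of sorted cells was amplified by a SMART method in 13 cycles, tagged with a transposase and sequenced, per the labels' protocols. The authors deposited 1 table of raw counts of reads by gene, with a column for each sample and exon length beside them. GSNAP, featureCounts 1.6.2 and mm10 were used, per the submitters' processing notes, and the table's name gives Ensembl release 87. Handling of strand, multi-mapped reads and duplicates is not given in the sources used here.

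The members and gene lists were chosen with earlier results of these data known. Of 49763 rows, 92 spike-in rows (at most 3.11e-05 percent of a library) were left out. Gene symbols came from GENCODE M21 by identifier, for 49326 of 49671 rows. Groups follow the genotype labels; replicates are numbered in accession order. One count equalled 0.0431 to 0.0641 CPM of the library total.

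The main test was edgeR 4.0.16 (R 4.3.3): TMM scaling, glmQLFit (robust=TRUE) and its quasi-likelihood F test, two-sided, with p-values adjusted by Benjamini-Hochberg over the 18435 genes that filterByExpr kept and called under 0.05. The filter removed 31236 genes. A log2 fold change compares ko/ko with wt/wt, and its SE is its size divided by the square root of F. Alternatives were DESeq2 1.42.0, limma 3.58.1 voom with quality weights, other scaling, other filters, robust=FALSE and each library left out. Removal of a loess trend (span 0.3) on exon length and leaving out the 3 libraries richest in Gm10800 and Gm10801 reads were added after seeing the data. Correlations used log2 CPM with a prior count of 2.

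Named genes are the 10 members, the up to 4 non-members with the highest mean RPKM of each pathway list (or any that passed), Flg and Itga6, and up to 4 genes per marker list (Tyrobp is named outside this, as a marker at 0 in some library). Smad4 and Rgmb were named after their values were seen, and Pald1, Tc2n, Dll4, Ppp1r8 and the genes given for Grem1 by their rank in likeness.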

Additional observations from a re-analysis of the deposited data

Results flagged for a closer look

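Among 90 groups of 4 or 5 library values examined for a library far from the others, 3 stood out, while chance at 1 in 20 gives 4.5. Tcf4, an E protein, had its lowest wt/wt value in replicate 2 at 427 CPM, with the other wt/wt libraries at 529 to 554 CPM. Tcf4 was also lowest in ko/ko replicate 1 at 592 CPM, with the other ko/ko libraries at 672 to 679.8 CPM. The summed basal keratinocyte markers were highest in wt/wt replicate 2 at 3155 CPM, with the other wt/wt libraries at 1503 to 1894 CPM. None of the 10 members had such a library in either genotype.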

How the results depend on the processing

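No paired analysis was possible because the labels give the genotypes no shared replicate numbers. The median log2 fold change of all genes was −0.03, and 0.14 with no filter, 0.08 with library totals alone and −0.10 without the exon-length trend. Genes called higher in ko/ko numbered 1, and 4 with library totals alone, 26 with no filter, 438 by DESeq2, 1217 by voom, 0 without the length trend, 7 without the 3 libraries richest in Gm10800 and Gm10801 reads, and 0 to 12 with 1 library left out, the highest without ko/ko replicate 4. Genes called lower numbered 0 by edgeR (1183 at an unadjusted p under 0.05), and 2 with no filter, 192 by DESeq2 and 585 by voom. Members called lower numbered 0, and 1 by DESeq2 and 2 by voom. Other pathway genes called higher numbered 0, and 1 by DESeq2 and 3 by voom, and those called lower 0, and 1 by DESeq2 and 2 by voom. The cause of these differences between tools was not tested.

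Over all settings Id1 ran from −0.60 to −0.42 and Bmp2 from −0.69 to −0.42 on the log2 scale. Of 646 combinations of a named gene and a setting, 595 kept direction and side of the threshold, 10 passed it (by DESeq2 or voom) and 41 changed sign. With library totals alone Bmp4 was at 0.071, Nbl1 at 0.10, Msx1 at 0.10 and Gdf10 at 0.0019. With upper-quartile factors Nbl1 was at 5.0e-05 and Msx1 at 0.011. By voom Eng was at −0.080, Skil at 0.23, Tcf12 at −0.047 and Fstl1 at −0.14, and with no filter Fstl1 was at −0.012. Without the length trend Tcf4 was at −0.18, Tcf12 at −0.30 and Fstl1 at −0.023. Without the 3 libraries Grem1 was at 0.24, Skil at 0.29 and Eng at −0.0035. With 1 library left out, Bmp4 ran from −0.12 to 0.018, Grem1 from −0.68 to 0.13, Eng from −0.041 to 0.19, Fstl1 from −0.13 to 0.24, Gdf10 from −0.33 to 0.041, Msx1 from −0.085 to 0.034, Nbl1 from −0.14 to 0.053, Skil from −0.26 to 0.058 and Tcf12 from −0.11 to 0.20. After subtraction of genotype means Smad6 had r = 0.37 with Id1 and 0.42 with Id3. Differences in marker share (percentage points, 1 library left out) ran from −0.0050 to 0.0024 for dermal papilla, −0.0029 to 0.0187 for hair follicle, −0.0022 to 0.0067 for blood endothelial, −0.0037 to 0.0035 for pericyte and −0.0117 to 0.0033 for Schwann cell and melanocyte markers. Counts of 25 to 127 per library limit Grem1.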
